A study of Mus musculus with 24 samples.

Results

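Matricellular proteins are secreted into the matrix around cells, where they act less as scaffold than as signals. They bind integrins, growth factors and structural collagens, and their genes are switched on in wounds, in development and in tissue that is being remodelled. In asthma models the airway wall thickens, with more smooth muscle and more deposited matrix, and tenascin C, periostin and the thrombospondins are among the proteins described there. IL-13, a cytokine of type 2 immunity, is a known inducer of periostin in airway epithelium and fibroblasts and acts on smooth muscle and macrophages.

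The 10 genes of this class that were followed were Tnc, Thbs1, Thbs2, Thbs3, Ccn1, Ccn2, Spp1, Postn, Sparc and Fn1. They were chosen by name with earlier results of these data known, so the counts of calls below do not test the class. The other gene lists used below were written in the same way, and their counts do not test those classes either. Every probe set annotated to 1 of these genes alone was taken, which gave 19 probe sets for 9 of the 10 genes. Spp1 was not analysed here. Of the 19 probe sets, 17 lay above the filter on dim signal and were tested among 31496 probe sets in all. The other 2, 1 of Thbs2 and 1 of Tnc, are given by their signal only.

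The lungs came from 4 groups of 3 samples each: mice lacking IL-13 (KO) treated with HDM, wild-type (WT) mice treated with HDM, KO mice treated with PBS and WT mice treated with PBS. HDM usually stands for house dust mite, which is an allergen, and PBS for phosphate-buffered saline. All samples were whole lung tissue. The sources used here do not give the dose, route or timing of HDM, nor the strain, age or sex of the mice. RNA of each sample was read on an array of set A and an array of set B. Nothing in the labels says whether the 3 samples of a group are 3 animals, so the p-values below speak of the spread between samples, and this may be technical.

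Lung markers were bright in every sample: Sftpc, the surfactant protein of alveolar type 2 cells, lay between 3790 and 7102, and Scgb1a1, the club cell secretoglobin, between 4255 and 6064. The Il13 probe set was dim in every group, with 8.71, 13.6 and 15.5 in KO HDM, 29.9, 16.0 and 15.5 in WT HDM, 3.30, 9.45 and 8.66 in KO PBS, and 4.65, 12.1 and 5.05 in WT PBS. It lay under the filter, and its position relative to the deleted stretch is not known, so the genotype labels could not be checked with it. Muscle from outside the airway wall was uneven: Tnnc2, fast skeletal troponin C, read 198 and 988 in WT HDM replicates 1 and 2 and 413 in WT PBS replicate 2, and at most 6.97 in each of the other 9 samples. Adipose tissue was uneven too. Its markers, 6 of 8 on the arrays, summed to 274 to 562 in KO HDM and 365 to 2845 in WT HDM lungs. The sums were 620 to 1606 in KO PBS and 697 to 2190 in WT PBS lungs. RNA quality also differed by actin. The 5′ to 3′ signal ratio of Gapdh on set A overlapped between the groups, at 1.04 to 1.24 over the 12 samples. The 5′ signal of actin divided by its 3′ signal on set A was 0.464 to 0.656 in KO HDM, 0.695 to 0.832 in WT HDM, 0.748 to 0.854 in KO PBS and 0.409 to 0.898 in WT PBS. By the 100 probe sets common to sets A and B, 9 of 12 samples matched their own second array best. In 2 samples, WT HDM replicate 3 and KO PBS replicate 3, the best match was of the other genotype, so the pairing of arrays rests on the titles. The set B titles of WT HDM replicate 1 and WT PBS replicate 1 read Ba where the others read B, and the labels do not explain this.

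The RefSeq promoter table held windows for 6 of the 9 genes. Upstream sequence is shown for Tnc, Thbs3 and Postn, as 1 member with a rise after HDM, 1 with a fall, and 1 that was lower in KO than in WT lungs. The windows hold the 250 bases before the annotated start in RefSeq (GRCm38.p6): Tnc at chr4:64046937-64047186 on the minus strand, Thbs3 at chr3:89214930-89215179 and Postn at chr3:54360857-54361106, both on the plus strand. Tnc and Postn each have 2 annotated starts, and the start with a TATA-like match nearest to it is shown. Capitals mark the motif TATANA. The windows read as follows:
Tnc: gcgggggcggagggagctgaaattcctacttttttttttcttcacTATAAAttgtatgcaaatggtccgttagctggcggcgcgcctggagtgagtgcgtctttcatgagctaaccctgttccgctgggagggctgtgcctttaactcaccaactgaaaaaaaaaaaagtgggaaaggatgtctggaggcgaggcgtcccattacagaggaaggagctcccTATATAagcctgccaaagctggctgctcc
Thbs3: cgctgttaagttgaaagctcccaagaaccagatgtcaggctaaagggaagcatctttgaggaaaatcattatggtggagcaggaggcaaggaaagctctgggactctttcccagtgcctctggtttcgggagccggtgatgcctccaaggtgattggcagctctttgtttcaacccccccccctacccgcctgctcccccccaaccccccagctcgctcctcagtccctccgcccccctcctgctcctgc
Postn: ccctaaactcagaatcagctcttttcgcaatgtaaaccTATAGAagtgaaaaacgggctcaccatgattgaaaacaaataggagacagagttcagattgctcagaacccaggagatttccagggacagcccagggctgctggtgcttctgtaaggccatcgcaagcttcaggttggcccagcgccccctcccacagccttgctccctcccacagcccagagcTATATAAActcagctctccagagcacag
Both strands were searched. TATANA occurred in the Tnc window at bases -205 and -29 from the start and in the Postn window at bases -212, -28 and -26. The last 2 Postn matches overlap, the Tnc match at -29 and the Postn match at -28 read the same on both strands, and the Thbs3 window held none. Of all 32851 windows of this length, 22.6% held TATANA. TTCNNNNGAA, the spacing bound by STAT6, CATTCC, the core bound by TEAD factors, and the CArG box, bound by SRF, were in none of the 3 windows. They occurred in 5.85%, 12.6% and 1.47% of all windows. Among the member windows not shown, that of Ccn1 held CATTCC, at base -103 from the start. These matches describe letters and say nothing of binding.

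**Figure D1:**
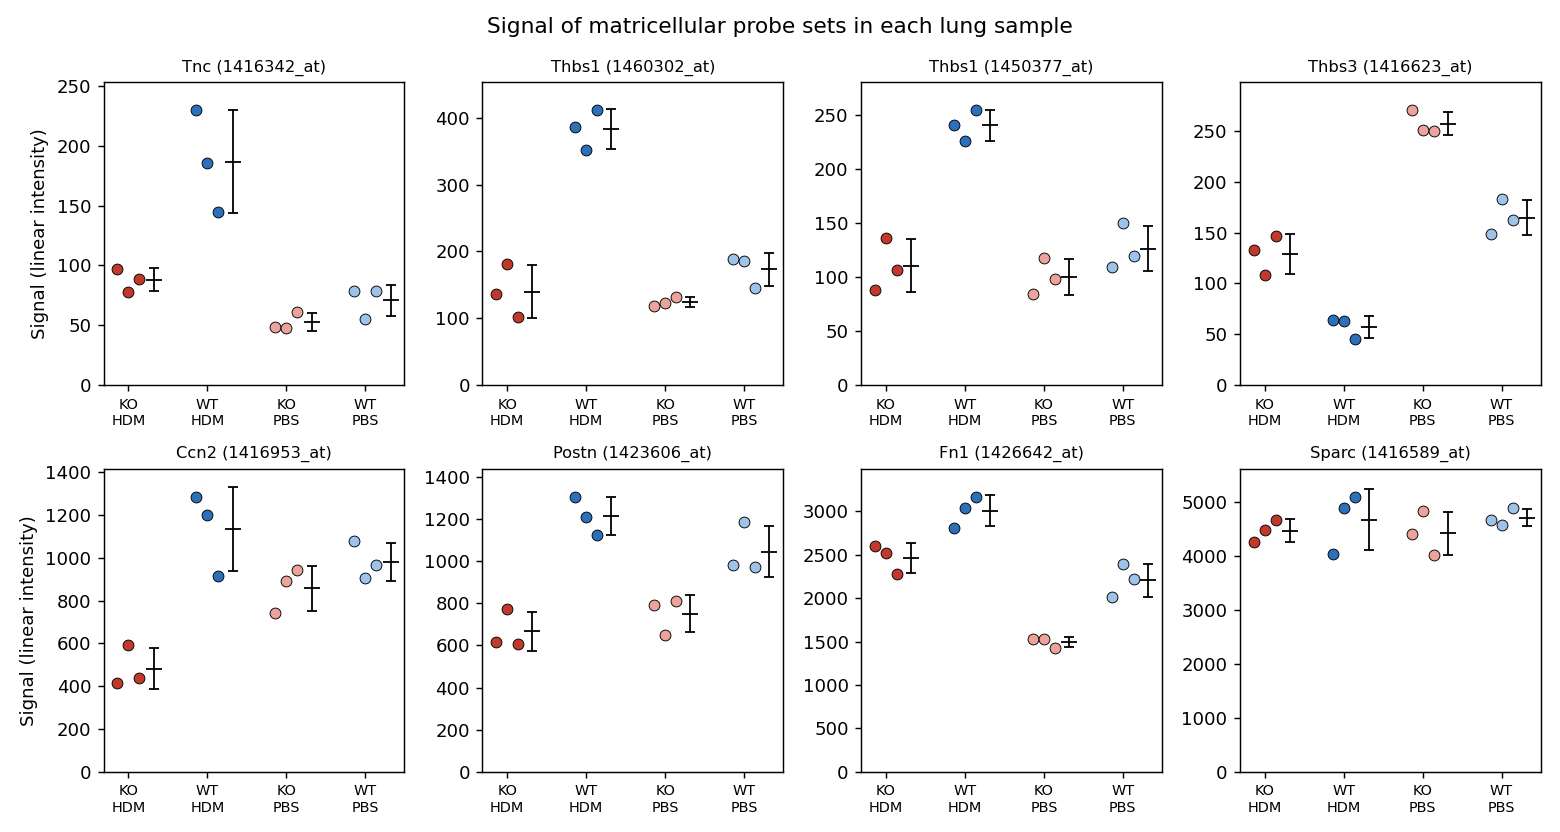
Linear signal of 8 probe sets of 7 matricellular genes in each of the 12 lung samples, with groups on the x axis and the group mean ± SD beside the points. Thbs1 and Tnc stand high in WT HDM lungs, Thbs3 stands low there, and Ccn2 is lowest in KO HDM lungs, at 416 to 590.5.

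HDM changed the signal of 4 matricellular genes in WT lungs, relative to PBS. Tnc was 2.47-fold higher, both Thbs1 probe sets rose (2.18-fold and 1.87-fold), 1 of 2 Fn1 probe sets rose (1.36-fold), and Thbs3 fell to 0.371 of its PBS level. In limma with Benjamini-Hochberg adjustment over all probe sets, 5 of 17 matricellular probe sets passed an adjusted p of 0.05, 4 higher and 1 lower, where 7.7% of all probe sets did. By groups that did not overlap, 5 of 17 were higher and 3 lower, against 11.1% and 12.6% of all probe sets. The median log2 difference was 0.22 over the 17 probe sets and -0.01 over all. Without WT HDM replicate 3 the calls numbered 3. With the skeletal muscle samples left out, 1 call remained, that of Thbs3. Fold changes are on the scale of log2(signal + pseudocount), with 7 added on set A and 11 on set B, which understates the change of dim probe sets. In whole tissue, fewer cells of a type and less RNA per cell cannot be told apart.

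Tenascin C (Tnc, probe set 1416342_at) is a hexameric glycoprotein, scarce in resting adult lung, that loosens cell adhesion. Its signal was 97.3, 78.0 and 88.2 in KO HDM lungs, 230.0, 186 and 144 in WT HDM lungs, 48.6, 47.9 and 61.1 in KO PBS lungs, and 78.3, 55.5 and 78.5 in WT PBS lungs. All 3 HDM samples of each genotype lay above all 3 PBS samples of that genotype. The difference was 1.31 ± 0.21 on the log2 scale in WT lungs (SE, limma adjusted p = 0.0024) and 0.67 ± 0.21 in KO lungs, which missed the threshold (adjusted p = 0.072). The interaction, the KO effect minus the WT effect, was -0.63 with a 95% interval of -1.28 to 0.02 (limma adjusted p = 0.88). Without the 3 samples that carried skeletal muscle signal, which leaves 1 WT HDM sample, the WT difference was 0.83 (limma adjusted p = 0.17). The lone sample is taken there to vary as the other groups do. The second Tnc probe set, 1456344_at on set B, lay under the filter, with 4.29 to 55.1 in KO HDM, 5.35 to 39.1 in WT HDM, 3.72 to 9.18 in KO PBS and 2.76 to 4.12 in WT PBS lungs.

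Thrombospondin 1 (Thbs1), a trimeric glycoprotein released by platelets and stromal cells, can activate latent TGF-beta and restrains angiogenesis. Probe set 1460302_at read 137, 181 and 101 in KO HDM lungs, 386, 352 and 412 in WT HDM lungs, 118, 123 and 131 in KO PBS lungs, and 189, 186 and 145 in WT PBS lungs. The WT HDM samples stood apart from all 9 others. The second, 1450377_at, had the same order, with 88.1, 137 and 106 in KO HDM, 241, 227 and 255 in WT HDM, 84.2, 118 and 98.4 in KO PBS, and 109.8, 150.0 and 119.7 in WT PBS lungs. After HDM the KO samples of both probe sets overlapped the KO PBS samples. The WT differences were 1.12 ± 0.19 and 0.90 ± 0.19 (SE, limma adjusted p = 0.0031 and 0.012), and the KO differences were 0.13 ± 0.19 and 0.12 ± 0.19 (adjusted p = 0.75 and 0.76). For 1460302_at the interaction was -1.0, with a 95% interval of -1.58 to -0.42, an unadjusted p of 0.0028 and a limma adjusted p of 0.56. WT HDM replicate 3, where Tnnc2 was at 6.59, held the highest Thbs1 signal of both probe sets. That sample also held the highest summed adipose marker signal of the 12 samples, at 2845. Among the WT HDM samples it held the lowest Tnc (1416342_at), Ccn2 and Postn signal. The part of skeletal muscle and adipose tissue in the Thbs1 result was not tested. Without the samples with skeletal muscle signal the WT differences were larger, at 1.28 and 1.11, but missed the threshold (limma adjusted p = 0.065 and 0.094). Leaving out that replicate 3 ended the call of 1450377_at as well. Platelet and megakaryocyte markers, 9 of 10 on the arrays, summed to 947 to 1096 in KO HDM and 1019 to 1182 in WT HDM lungs. They summed to 980 to 1087 in KO PBS and 1089 to 1231 in WT PBS lungs. Their part in the Thbs1 result was not tested.

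Thrombospondin 3 (Thbs3) is a pentameric relative found in cartilage, muscle and lung that lacks the TGF-beta activating motif of Thbs1. Its single probe set, 1416623_at, moved the other way. It read 133, 108 and 147 in KO HDM lungs, 63.8, 62.8 and 44.9 in WT HDM lungs, 271, 251 and 249.7 in KO PBS lungs, and 148, 183 and 163 in WT PBS lungs. The 4 groups did not overlap, and KO samples were higher than WT samples under both treatments. The log2 difference after HDM was -1.43 ± 0.17 in WT lungs (SE, limma adjusted p = 0.00036), and the KO difference was -0.97 ± 0.17 (limma adjusted p = 0.0048). Both calls held under each of the 24 alternative settings tried. The interaction was 0.46, with a 95% interval of -0.07 to 1.0 (limma adjusted p = 0.90). Cartilage and bone markers, 10 of 11 on the arrays, summed to 419 to 473 in KO HDM and 435 to 585 in WT HDM lungs, against 454 to 463 in KO PBS and 446 to 526 in WT PBS lungs. Some cardiac muscle, mesothelial and lung tissue markers fell after HDM in both genotypes beside Thbs3. Of 10 cardiac muscle genes 7 were called lower in KO and 3 in WT lungs, of 5 tested mesothelial genes 3 in each, and of 9 lung tissue genes 1 and 3. Over all genes 10.9% were called in KO and 10.5% in WT lungs, in either direction. The lung tissue count in KO is near that share. Cardiac muscle markers, 10 of 10 on the arrays, summed to 1528 to 2142 in KO HDM, 2254 to 2615 in WT HDM, 2784 to 5252 in KO PBS and 3066 to 3635 in WT PBS lungs. Mesothelial markers, 6 of 6 on the arrays, summed to 1230 to 1534 in KO HDM, 1362 to 1655 in WT HDM, 2352 to 2699 in KO PBS and 2116 to 2707 in WT PBS lungs. Lung tissue markers, 9 of 9 on the arrays, summed to 36560 to 38083 in KO HDM, 28007 to 38409 in WT HDM, 39908 to 47113 in KO PBS and 38332 to 42616 in WT PBS lungs. No marker of these 3 lists was at 0, and their part in the Thbs3 result was not tested.

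Thrombospondin 2 (Thbs2), which shapes collagen fibrils and limits angiogenesis, had 2 tested probe sets and neither was called. Probe set 1450663_at read 43.2, 61.1 and 63.1 in KO HDM, 92.4, 58.0 and 69.8 in WT HDM, 47.5, 34.1 and 38.9 in KO PBS, and 35.6, 36.2 and 53.1 in WT PBS lungs. WT HDM samples lay above WT PBS samples, with a difference of 0.72 and a 95% interval of 0.20 to 1.24 (limma adjusted p = 0.095). Probe set 1447862_x_at lay between 27.9 and 68.9 over the 12 samples, with overlapping groups. The untested probe set, 1422571_at, was at 12.7 to 34.7 in KO HDM, 39.5 to 46.8 in WT HDM, 22.1 to 23.0 in KO PBS and 21.0 to 34.0 in WT PBS lungs.

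Fibronectin (Fn1) forms the first fibrils of provisional matrix and carries the cell-binding site recognised by integrins. Its probe set 1426642_at rose after HDM in both genotypes. The signal was 2604, 2518 and 2276 in KO HDM lungs, 2813, 3040.3 and 3171 in WT HDM lungs, 1530.5, 1533 and 1426 in KO PBS lungs, and 2013, 2392 and 2215 in WT PBS lungs. Neither genotype's HDM and PBS samples overlapped, and all KO samples lay below all WT samples of the same treatment. The difference was 0.72 ± 0.10 in KO lungs (SE, limma adjusted p = 0.0011) and 0.45 ± 0.10 in WT lungs (limma adjusted p = 0.018). The KO call held under all 24 alternatives. The WT call was lost in 7 of them. It was lost without WT HDM replicate 2 or 3, without WT PBS replicate 1, and without the muscle samples. It was also lost with quantile normalization, with eBayes without a trend, and with only the groups of the comparison. Without the muscle samples, and so with fewer samples, the WT difference was 0.58 (limma adjusted p = 0.079), against 0.45 with all samples. Probe set 1437218_at, with 101, 136 and 111 in KO HDM, 183, 142 and 165 in WT HDM, 69.7, 54.9 and 80.8 in KO PBS, and 118, 61.5 and 143 in WT PBS lungs, was not called (limma adjusted p = 0.13 in KO and 0.19 in WT). Macrophages also make fibronectin, and 12 of 14 macrophage markers rose after HDM in each genotype, against 10.9% of genes called in KO and 10.5% in WT lungs. Their summed signal was 12199 to 13315 in KO HDM, 12684 to 14991 in WT HDM, 4093 to 4873 in KO PBS and 3968 to 4637 in WT PBS lungs. Their part in the Fn1 result was not tested.

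In KO lungs HDM changed 3 matricellular genes: Fn1 rose 1.64-fold, Thbs3 fell to 0.512 of its PBS level, and Ccn2 fell to 0.560 of it. By limma this was 3 of 17 probe sets, 1 higher and 2 lower, where 8.56% of all probe sets passed. By groups that did not overlap, 3 were higher and 4 lower, against 14.6% and 15.7% of all probe sets. The median log2 difference was 0.02 over the 17 probe sets and 0.00 over all.

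Connective tissue growth factor (Ccn2, formerly Ctgf) is a target of TGF-beta and of the YAP and TEAD factors, and binds integrins. Probe set 1416953_at read 416, 590.5 and 437 in KO HDM lungs, 1286, 1202 and 915 in WT HDM lungs, 740.1, 892 and 942 in KO PBS lungs, and 1077, 903 and 965 in WT PBS lungs. The KO HDM samples lay below all 9 others, while the WT HDM and WT PBS samples overlapped. The KO difference was -0.84 ± 0.16 (SE, limma adjusted p = 0.0078) and the WT difference 0.20 ± 0.16 (limma adjusted p = 0.58). The interaction was -1.03, with a 95% interval of -1.54 to -0.53, an unadjusted p of 0.00073 and a limma adjusted p of 0.32. The KO call held under each of the 24 alternatives, and with the actin ratio as a covariate the difference was -0.76 (limma adjusted p = 0.033). Beside it, 5 of 12 smooth muscle genes were lower in KO HDM than in KO PBS lungs by limma, where 10.9% of all genes were called. The 12 genes summed to 3511 to 3857 in KO HDM and 4473 to 5637 in KO PBS lungs. Their part in the Ccn2 result was not tested.

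Ccn1 (formerly Cyr61), an immediate early relative of Ccn2 that is induced by stretch and by serum, was measured by 4 probe sets. Their HDM differences were all negative, from -0.76 to -0.19 in KO and from -0.74 to -0.19 in WT lungs. Between KO and WT lungs the 4 probe sets did not follow 1 pattern. On set A, 1438133_a_at was 132, 139 and 89.6 in KO HDM, 144, 99.8 and 89.9 in WT HDM, 256, 150.2 and 223 in KO PBS, and 162, 214 and 189 in WT PBS lungs. Its HDM samples lay under the PBS samples of the same genotype, with differences of -0.76 in KO and -0.74 in WT lungs that missed the threshold (limma adjusted p = 0.073 and 0.088). Probe set 1416039_x_at lay at 159 to 255 in KO HDM, 245 to 331 in WT HDM, 243 to 364 in KO PBS and 314 to 377 in WT PBS lungs. On set B, 1457823_at was 79.1, 117 and 103 in KO HDM, 164, 177 and 159 in WT HDM, 126, 139 and 139 in KO PBS, and 164, 195 and 241 in WT PBS lungs. There the KO samples lay under the WT samples of the same treatment, by -0.70 after HDM (95% interval -1.07 to -0.32, limma adjusted p = 0.16) and -0.52 after PBS (limma adjusted p = 0.58). On 1457823_at, WT HDM replicate 3 and KO PBS replicate 3, whose arrays matched best across genotypes, read 159 and 139. Both samples are part of the groups compared, so these values do not check the pairing of arrays. The other set B probe set, 1442340_x_at, differed by -0.73 after HDM and -0.90 after PBS in KO against WT lungs (limma adjusted p = 0.33 and 0.44). No Ccn1 probe set was called in any comparison.

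**Figure D2:**
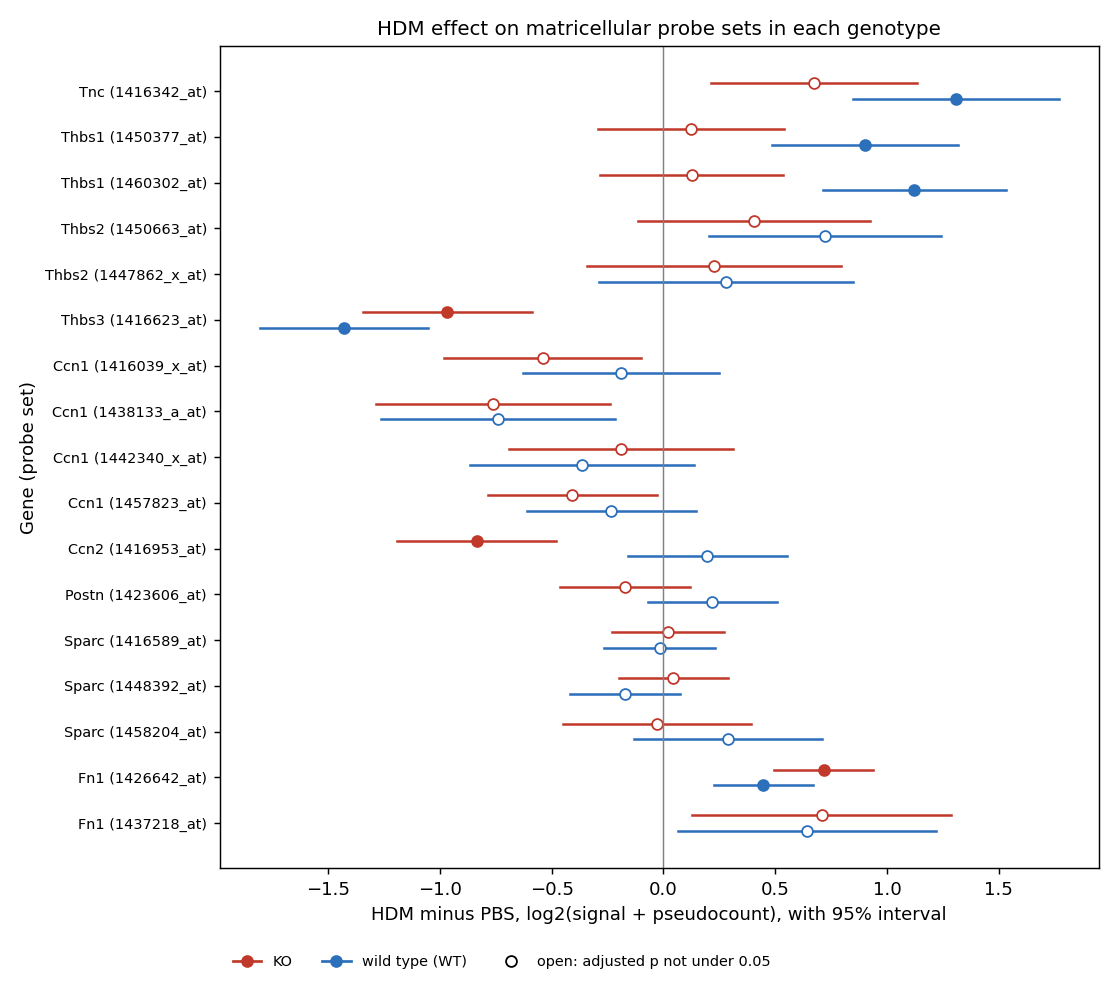
HDM minus PBS difference of the 17 tested probe sets, in KO (upper of each pair) and WT lungs, on the log2(signal + pseudocount) scale with 95% intervals. Filled points passed a limma adjusted p of 0.05: 3 in KO and 5 in WT lungs, with Thbs3 and Fn1 filled in both.

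The HDM effects of the 2 genotypes were then set against each other. By limma 0 of 17 probe sets passed the interaction test, where 0.0857% of all probe sets did. At an unadjusted p under 0.05 there were 3 (both Thbs1 probe sets and Ccn2), against 5.71% of all probe sets. All 3 had lower values of the HDM effect in KO than in WT lungs. For the other 14 the difference of effects missed both thresholds.

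Between KO and WT lungs after PBS, 0 of 17 matricellular probe sets were called by limma, where 0.0381% of all were. At an unadjusted p under 0.05 there were 6 of 17, against 6.8% of all probe sets. These were Thbs3, higher in KO by 0.63, and Fn1 1426642_at, Postn, Thbs1 1460302_at and both set B probe sets of Ccn1, with KO minus WT differences from -0.90 to -0.45. By groups that did not overlap, 1 was higher and 5 lower in KO, against 5.5% and 5.71% of all probe sets. For Fn1 the difference was -0.56 with a 95% interval of -0.78 to -0.33 (limma adjusted p = 0.16).

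After HDM, 4 matricellular genes differed between KO and WT lungs. Thbs1 was at 0.367 and 0.467 of the WT level by its 2 probe sets, Ccn2 at 0.427 and Postn at 0.549, while Thbs3 was 2.13-fold higher in KO. By limma, 5 of 17 probe sets passed, 1 higher and 4 lower, where 0.457% of all probe sets did. At an unadjusted p under 0.05 there were 11 of 17, against 8.5% of all. By groups that did not overlap, 1 was higher and 9 lower in KO, against 7.63% and 7.29% of all probe sets. The median log2 difference was -0.46 over the 17 probe sets and 0.00 over all. This comparison shares its samples with both HDM comparisons, so the counts are not independent of those above.

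Periostin (Postn) is a matricellular protein of fibroblasts and airway epithelium that promotes collagen crosslinking and is used as a marker of IL-13 activity in asthma. Probe set 1423606_at read 616, 775 and 609 in KO HDM lungs, 1307, 1211 and 1126 in WT HDM lungs, 792, 651 and 809 in KO PBS lungs, and 982, 1186 and 970.3 in WT PBS lungs. Every KO sample lay under every WT sample, whatever the treatment. HDM itself did not pass the test in either genotype, with a log2 difference of -0.17 in KO (95% interval -0.46 to 0.12) and 0.22 in WT lungs (95% interval -0.07 to 0.51). KO minus WT was -0.87 ± 0.13 after HDM (SE, limma adjusted p = 0.012) and -0.48 ± 0.13 after PBS (limma adjusted p = 0.49). The difference of those values is the interaction, -0.39 with a 95% interval of -0.80 to 0.02 (limma adjusted p = 0.88).

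KO minus WT after HDM was -1.45 ± 0.19 for Thbs1 1460302_at, -1.10 ± 0.19 for 1450377_at, -1.23 ± 0.16 for Ccn2 and 1.09 ± 0.17 for Thbs3 (SE; limma adjusted p = 0.0045, 0.024, 0.0048 and 0.015). Tnc was lower in KO by a similar size, -1.01 with a 95% interval of -1.47 to -0.55, and its groups did not overlap, but it missed the threshold (limma adjusted p = 0.071). These 5 calls rest on few samples. Without the samples with skeletal muscle signal 0 of 17 were called by limma, with values of -1.55 and -1.18 for Thbs1, -0.94 for Ccn2, -0.76 for Postn and 1.38 for Thbs3. Of 17 probe sets, 2 were called without KO HDM replicate 1 and 2 without replicate 3, and 3 were called without any 1 of the WT HDM samples.

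**Figure D3:**
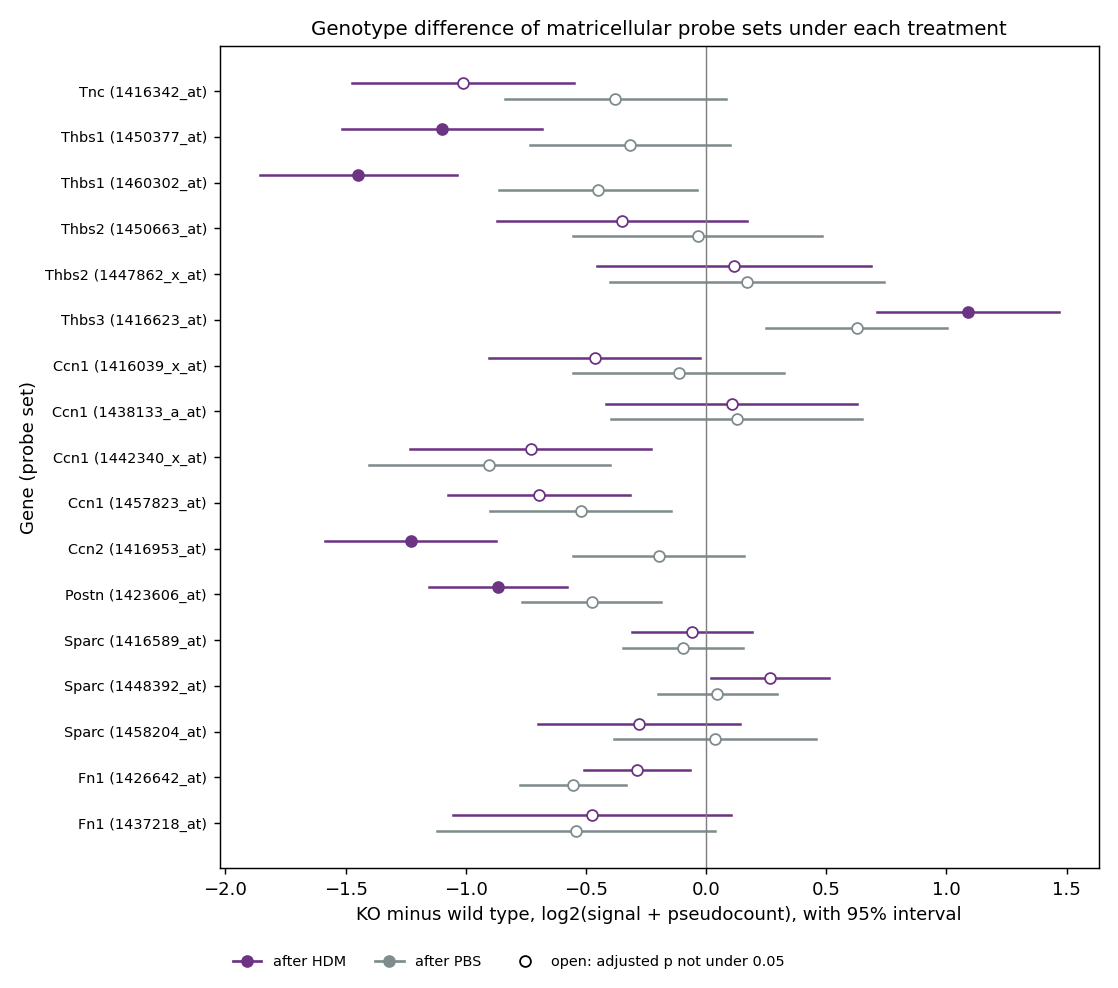
KO minus WT difference of the 17 tested probe sets after HDM (upper of each pair) and after PBS, on the log2(signal + pseudocount) scale with 95% intervals. The 5 filled points, which passed a limma adjusted p of 0.05, all belong to the HDM comparison, with Thbs3 to the right of 0 and the others to the left.

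Smooth muscle markers moved with these genotype differences. By limma's interaction test the HDM effect was lower in KO for 6 of 12 smooth muscle genes, where 0.159% of genes were called. HDM went with 5 of 12 lower in KO and 6 of 12 higher in WT lungs, where 10.9% and 10.5% of genes were called. After HDM 9 of 12 were lower in KO than in WT lungs by limma, where 0.67% of genes were called. The list was written with earlier results of these data known, so these counts do not test smooth muscle genes as a class. Acta2, smooth muscle actin, averaged 1081 in KO HDM and 2541 in WT HDM lungs (log2 difference -1.23, limma adjusted p = 0.0011), and Actg2, enteric smooth muscle actin, 112 and 501 (log2 difference -2.10, adjusted p = 0.00018). The summed signal of the 12 genes was 3511 to 3857 in KO HDM, 8463 to 9578 in WT HDM, 4473 to 5637 in KO PBS and 4351 to 5226 in WT PBS lungs, and no marker was at 0. The WT HDM samples, with the highest sums, had the highest Thbs1 signal on both probe sets and the lowest Thbs3 signal of the 12 samples. The KO HDM samples, with the lowest sums, had the lowest Ccn2 signal, but Ccn2 overlapped between WT HDM and WT PBS lungs, where the sums did not. After PBS the sums of KO and WT lungs overlapped, while Postn, Thbs1 1460302_at and Thbs3 did not overlap between the genotypes (KO minus WT -0.48, -0.45 and 0.63), and none of these was called. Skeletal muscle markers, 14 of 14 on the arrays, summed to 435 to 578 in KO HDM and 646 to 8946 in WT HDM lungs. The actin ratio did not overlap between KO HDM and WT HDM lungs on set A either, as given above. With the actin ratio as a covariate Thbs1 1460302_at, Ccn2 and Postn were still called (limma adjusted p = 0.026, 0.033 and 0.040), and Thbs1 1450377_at and Thbs3 were not (adjusted p = 0.053 and 0.077). Adipose markers summed to 274 to 562 in KO HDM and 365 to 2845 in WT HDM lungs. The part of smooth muscle, skeletal muscle and adipose tissue in these differences was not tested.

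**Figure D4:**
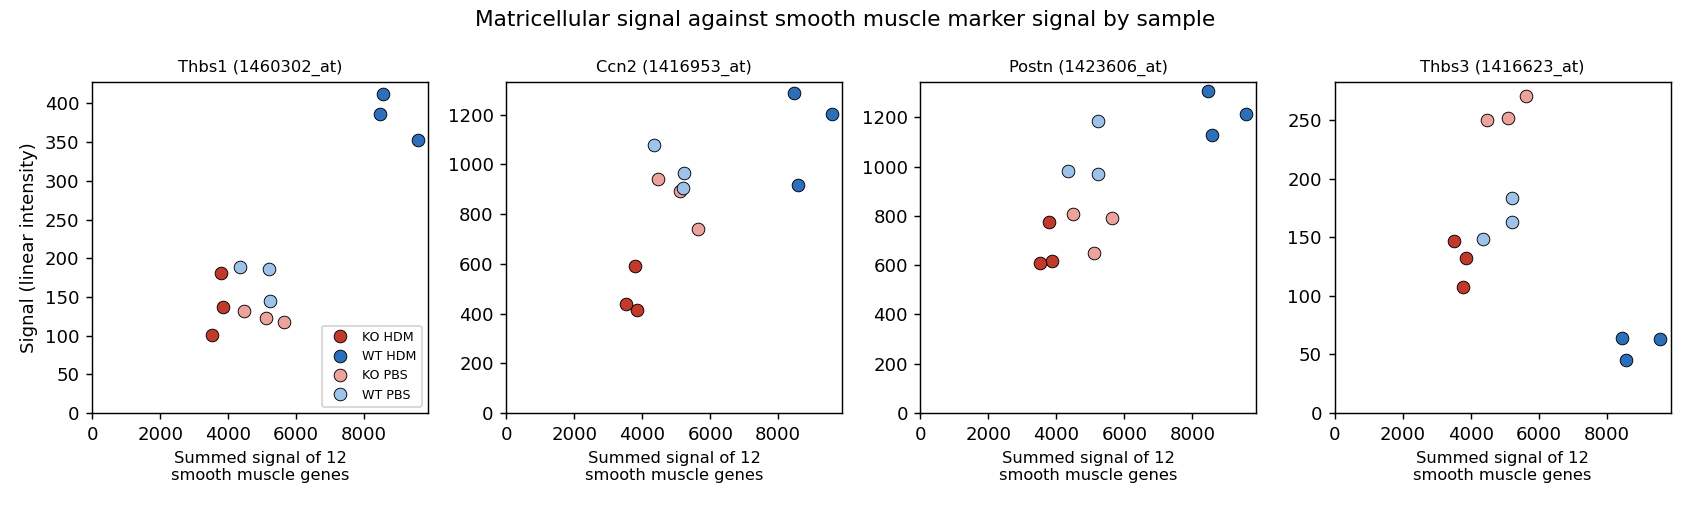
Signal of Thbs1, Ccn2, Postn and Thbs3 (y axis, linear) against the summed signal of 12 smooth muscle genes (x axis) in the 12 samples, coloured by group. The 3 WT HDM samples lie at sums of 8463 to 9578, apart from the 9 others, and the 3 KO HDM samples lie at 3511 to 3857.

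Osteonectin (Sparc), a collagen-binding glycoprotein that is abundant in lung stroma, was called in no comparison. Its probe set 1416589_at ranged from 4017 to 5095 over the 12 samples, 1448392_at from 2599 to 3796 and 1458204_at from 150.3 to 266. For the 2 bright probe sets the HDM differences were 0.02 and 0.04 in KO lungs and -0.02 and -0.17 in WT lungs. The 95% intervals of these 4 differences lay within -0.42 to 0.29, so changes of the size seen for Tnc or Thbs3 in WT lungs fall outside them. Probe set 1448392_at was among the 3 that did not overlap and were lower in WT HDM than in WT PBS lungs (limma adjusted p = 0.45). It was also higher in KO than in WT lungs after HDM by 0.27, with an unadjusted p of 0.036 and a limma adjusted p of 0.54. After quantile normalization the HDM differences of the 2 bright probe sets in KO lungs became -0.23 and -0.25.

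Of 21 tested relatives of the matricellular genes (of 30 listed), 8 were called after HDM in KO and 8 in WT lungs, 3 higher and 5 lower, and these were the same 8 genes. Over all genes 10.9% were called in KO and 10.5% in WT lungs. The other 13 relatives were called in neither genotype by this count, and by any probe set of the gene 9 were called in KO and 8 in WT lungs. Eln, elastin, rose by 0.91 in KO and 0.87 in WT lungs, Tgfbi, a TGF-beta-induced adhesion protein, by 0.87 and 0.78, and Fstl1, a secreted relative of Sparc, by 0.68 and 0.82 (log2, limma adjusted p from 0.0063 to 0.018). Tnxb, tenascin X, fell by 1.08 in both, and Tnn, another tenascin, had log2 differences of -0.56 in KO and -0.85 in WT lungs. The list's median log2 difference was -0.18 in KO and -0.22 in WT lungs, against 0.01 and -0.00 over all genes. Between genotypes after HDM 1 of 21 was called, where 0.67% of all genes were: Tnn, higher in KO by 0.74 (limma adjusted p = 0.042).

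Of 24 tested receptors of matricellular proteins, 3 were called after HDM in each genotype and they were the same 3. This is near the share over all genes, 10.9% in KO and 10.5% in WT lungs. Counted by any probe set of the gene, 5 were called in KO and 4 in WT lungs. Itgb2, the integrin chain of leukocytes, rose by 0.96 in KO and 1.17 in WT lungs, and Cd44, the receptor of osteopontin and hyaluronan, by 0.85 and 0.76. Itga8, the integrin chain of lung fibroblasts and smooth muscle that binds tenascin C and fibronectin, had log2 differences of -0.62 and -0.87 (limma adjusted p of these 6 differences from 0.00035 to 0.0047). The medians of the list were -0.07 in KO and 0.00 in WT lungs.

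Of 16 crosslinking and assembly genes, 4 were called after HDM in KO (1 higher, 3 lower) and 2 in WT lungs (both lower), where 10.9% of all genes were called in KO and 10.5% in WT lungs. The WT count is near that share. Pcolce2 and Pcolce, enhancers of procollagen processing, were lower in both genotypes, with log2 differences of -0.73 and -0.50 in KO and -1.10 and -0.52 in WT lungs. Of 25 regulators of TGF-beta, YAP and SRF signalling, 7 were called in KO and 8 in WT lungs, all lower and 6 of them the same, against the same 10.9% and 10.5% of all genes. Ltbp4, a latent TGF-beta binding protein, had log2 differences of -1.46 in KO and -1.42 in WT lungs and Tgfbr3, the TGF-beta co-receptor, of -1.18 and -1.39 (limma adjusted p from 0.00012 to 0.00047). Tead1, the DNA-binding partner of YAP, had -0.54 and -0.60 (limma adjusted p = 0.0098 and 0.0054). The medians of this list were -0.33 in KO and -0.20 in WT lungs.

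Of 13 other targets of TGF-beta and YAP, 5 were called in KO (1 higher, 4 lower) and 2 in WT lungs (1 higher, 1 lower), against 10.9% and 10.5% of all genes. The WT count is near the share over all genes. F3, tissue factor, averaged 43.4 in KO HDM, 122 in WT HDM, 97.0 in KO PBS and 94.2 in WT PBS lungs, and so had its lowest group where Ccn2 had. Its log2 difference was -1.03 between KO HDM and KO PBS lungs and -1.35 between KO HDM and WT HDM lungs (limma adjusted p = 0.0047 and 0.0058). Ajuba, a LIM protein of the Hippo pathway, and Amotl2, a YAP-binding scaffold, had log2 differences of -1.0 and -0.57 after HDM in KO lungs (limma adjusted p = 0.0048 and 0.011). Tgfbi, which is also in the list of relatives, was the gene that rose.

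The genes whose signal followed a member most closely were found by Pearson's r over the 12 samples, as a description. The points share their groups and treatment, so a high r mostly reflects the group means. Tnc was closest to Il33, the epithelial alarmin (r = 0.985), and to Gclc and Vcan (r = 0.949 and 0.946). Thbs1 1460302_at was closest to Rgs5, Cd200 and Ccl11 (r = 0.958, 0.953 and 0.947), and 1450377_at to Elf5, Pspn and Me1 (r = 0.968, 0.965 and 0.948). Thbs3 was closest to Plet1 and to Scnn1b and Scnn1a, subunits of the epithelial sodium channel (r = 0.982, 0.982 and 0.977). Ccn2 was closest to Mylk, the smooth muscle light chain kinase, F3 and Cald1 (r = 0.927, 0.911 and 0.902). For Postn they were Fetub, Ror1 and Tnfaip8 (r = 0.906, 0.904 and 0.898), and for Fn1 1426642_at Aldh18a1, Kcne4 and Senp7 (r = 0.933, 0.932 and 0.926).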

How the data were processed

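Lung RNA of 12 samples was hybridised to 24 arrays. The authors deposited 1 linear intensity per probe set and array; their software is not given in the sources used here. Each array had a mean of 150.0 once 2% was trimmed at both ends, so the deposited scaling was kept. Intensities became log2(intensity + pseudocount), with a pseudocount of 7 (set A) or 11 (set B), the rounded 10th percentile. Probe sets whose mean lay under the 30th percentile of their set (signals of about 32.0 and 39.2) were left out, as were control probe sets and set B copies of the 100 shared probe sets, which left 15838 and 15658. Gene names came from the platform annotation, updated to RefSeq symbols. Limma 3.58.1 in R 4.3.3 fitted the 4 groups in 1 model (8 residual degrees of freedom, eBayes with an intensity trend, Benjamini-Hochberg adjustment over 31496 probe sets per comparison, threshold 0.05). For lists, the brightest tested probe set stood for each of 14477 genes. The HDM comparison in WT lungs was also simulated over 31496 probe sets, with few of them changed and with independent normal noise. Of the probe sets changed by 1 log2 unit, 45% were recovered, and of those changed by 2 log2 units, 86%. The share changed was smaller than the share called in the data, so these are not the recovery rates of the real comparison.

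Groups and replicate numbers were read from the titles. Replicate numbers did not pair the samples: 1 of 18 same-numbered pairs had deviations correlated above 0.1 (range -0.089 to 0.171). Within groups, Spearman correlations lay between 0.962 and 0.980 (set A) or 0.887 and 0.927 (set B). No scan date or batch was given in the sources used here. The members and lists were chosen with earlier results of these data known. Named genes were every member probe set, up to 4 called genes with the smallest p per list and comparison, and for each called member probe set the 3 genes with the highest Pearson's r. Alternatives tried were other pseudocounts, filters, normalization and variance settings, a replicate block, leaving out each sample, and leaving out samples with skeletal muscle signal or a low actin ratio.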

Additional observations from a re-analysis of the deposited data

Results flagged for a closer look

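Groups of 3 samples were not tested for outliers. Of the matricellular probe sets, 0 of 17 passed limma's interaction test, and 3 had an unadjusted p under 0.05. Among other genes, the HDM effect differed between KO and WT lungs by limma's interaction test for 6 of 12 smooth muscle genes, all lower in KO. Actg2 had the smallest p, with an interaction of -2.19 on the log2 scale (limma adjusted p = 0.0076). The same test called 4 of 8 IL-13-induced genes, all lower in KO, with Ccl11, the eosinophil chemokine eotaxin, at -4.02 (limma adjusted p = 0.0076). It called 1 of 14 macrophage genes, and 0.159% of all genes. These lists were written with earlier results of these data known, so the counts do not test the lists as classes.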

How the results depend on the processing

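Of 13 called differences of matricellular probe sets, 0 changed direction under 24 alternatives, and of 72 uncalled ones 19 did under at least 1. Thbs3 in both genotypes, and Ccn2 and Fn1 1426642_at in KO lungs, kept their HDM calls throughout. The number called for the HDM effect in WT lungs was 1 without the samples with skeletal muscle signal, and 3 to 5 when each sample was left out. In KO lungs it was 5 with the array sets fitted separately. For KO against WT after HDM it was 3 with only those groups, 0 without the muscle samples, 2 without the 2 samples of lowest actin ratio and 3 with that ratio as a covariate (both chosen after seeing the data), and 2 to 5 when each sample was left out. The Thbs1 1450377_at call there was lost in 9 of 24 alternatives, that of Thbs3 in 7 and that of Postn in 6. The causes were not tested; the smaller fits also hold fewer samples. With a replicate block the counts were 5, 3, 0, 0 and 5, as without it, in the order HDM in WT, HDM in KO, interaction, KO against WT after PBS and after HDM; the numbers do not pair the samples, and 4 of 12 correlated best with their own number. Quantile normalization moved the median of all probe sets by less than 0.1. Exact two-sided permutation tests of 3 against 3 cannot go below 0.10.

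The log2 differences that changed sign were uncalled and near 0. Without the muscle samples the HDM effect in WT was -0.15 for Ccn2 and 0.10 for Sparc 1416589_at, the interaction was 0.15 for Ccn1 1438133_a_at and -0.076 for Sparc 1416589_at, and KO against WT after HDM was -0.13 for Thbs2 1447862_x_at. With quantile normalization the KO HDM effect was -0.23 and -0.25 for Sparc 1416589_at and 1448392_at, the interaction 0.013 for Ccn1 1438133_a_at and -0.20 for Sparc 1416589_at, and KO against WT after PBS 0.042 for Thbs2 1450663_at. The Thbs2 1447862_x_at interaction was 0.085 without the low-actin samples and 0.21 with the covariate. Leaving out 1 sample at a time gave these ranges. HDM effect in WT: -0.084 to 0.084 for Sparc 1416589_at. HDM effect in KO: -0.034 to 0.26 for Thbs1 1450377_at, -0.071 to 0.33 for 1460302_at, -0.047 to 0.085 for Sparc 1416589_at, -0.048 to 0.12 for 1448392_at and -0.18 to 0.13 for 1458204_at. Interaction: -0.30 to 0.074 for Thbs2 1447862_x_at, -0.24 to 0.17 for Ccn1 1438133_a_at, -0.027 to 0.32 for 1442340_x_at, -0.065 to 0.10 for Sparc 1416589_at and -0.17 to 0.40 for Fn1 1437218_at. KO against WT after PBS: -0.14 to 0.13 for Thbs2 1450663_at, -0.22 to 0.064 for Ccn1 1416039_x_at, -0.028 to 0.34 for 1438133_a_at and -0.12 to 0.16 for Sparc 1458204_at. KO against WT after HDM: -0.13 to 0.24 for Thbs2 1447862_x_at, -0.024 to 0.30 for Ccn1 1438133_a_at and -0.16 to 0.0095 for Sparc 1416589_at.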

Other observations

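Thbs3 lies beside Mtx1 and Muc1 in the RefSeq gene order, and these neighbours were looked at after the Thbs3 values were seen. Mtx1, a protein of the outer mitochondrial membrane, had HDM differences of 0.28 and 0.28 in KO lungs and 0.15 and -0.15 in WT lungs by its 2 probe sets. Muc1, a membrane mucin, had -0.04 in KO and 0.01 in WT lungs (log2). Neither was called in any of the 5 comparisons by limma.

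Immediate early genes, the class to which Ccn1 belongs, went in both directions after HDM: of 17 tested, 2 were higher and 3 lower in KO, and 3 higher and 6 lower in WT lungs, where 10.9% of all genes were called in KO and 10.5% in WT lungs. Jun was lower, with log2 differences of -1.24 in KO and -0.58 in WT lungs, and Egr2 was higher, with 0.90 and 1.39 (limma adjusted p from 0.00021 to 0.024). Fibroblast markers were split as well. Of 12 tested, 3 were called higher and 3 lower in KO, and 2 higher and 1 lower in WT lungs, against the same shares of all genes. Those called in KO lungs only were Pdgfra and Pdgfrb, with log2 differences of -0.97 and -0.66, and Dpt, with 0.48 (limma adjusted p from 0.0050 to 0.025). Col3a1 and Col1a2, fibrillar collagens, rose in both genotypes, by 0.47 and 0.48 in KO and 0.55 and 0.42 in WT lungs, while Tcf21, a fibroblast transcription factor, had -0.58 and -0.73 (limma adjusted p from 0.00077 to 0.037).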
